A study of Mus musculus with 12 samples.

Results

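The comparison described here set C2C12 cells that had differentiated for 48 h in the presence of PFI-3 against cells that had differentiated for 48 h in DMSO, the vehicle. C2C12 is an immortalized mouse myoblast line that stops dividing, fuses and builds sarcomeres when serum is withdrawn. The libraries were taken by their titles alone: 2 libraries labelled DM 48h with PFI-3 and 2 labelled DM 48h with DMSO, which makes 4 of the 12 libraries in the series. The other 8 libraries, from proliferating cells and from cells at 24 h, entered the statistical model, and those from 24 h were used to ask whether the effect differed between the 2 times. All groups used here were unmodified cells of the same line. Near confluence they were moved to medium with 2% horse serum and 2 ug/ml insulin. PFI-3 was given at 50 uM from 12 h before induction and renewed every 24 h, and the control dishes received DMSO on the same schedule. The labels describe the libraries of each group as biological duplicates. A single line, 1 dose and bulk RNA from whole dishes limit what the groups can model.

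PFI-3 occupies the acetyl-lysine pocket of the bromodomains of BRG1 (gene Smarca4) and BRM (gene Smarca2), the alternative ATPases of the mammalian SWI/SNF chromatin-remodelling complexes, and of PB1 (gene Pbrm1), a subunit of one form of the complex. In myoblasts, these remodellers are recruited with MyoD to muscle promoters, where myogenin and MEF2 proteins then drive the late genes of the contractile apparatus. Exit from the cell cycle accompanies this programme, through CDK inhibitors, the RB family and loss of E2F activity. The title of the series frames the comparison as a test of whether the bromodomains are needed for muscle differentiation.

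The 4 libraries at 48 h held between 12576374 and 12859768 expected counts and listed between 14163 and 14231 genes. Replicates at 48 h scattered by more than counting error, which alone would give a chi-square over degrees of freedom near 1. The value was 2.01 for DMSO and 2.22 for PFI-3, against 21.1 and 15.6 in the proliferating pairs. Markers of skeletal muscle identity were present in all 4 libraries, from Myf5 at 38.1 to 42.9 CPM to Des at 1747 to 2125 CPM. The summed level of 6 such genes (Des, Myod1, Myf5, Cdh15, Chrna1 and Myog) was 6410 to 6490 CPM with DMSO and 4910 to 5030 CPM with PFI-3, where CPM is the count as a share of the TMM-scaled library size. Of these 6 genes, Cdh15, Chrna1 and Myog were called lower. Markers of endothelium summed to at most 1.8 CPM. The 7 macrophage markers summed to 8.05 to 8.43 CPM with DMSO and 9.37 to 10.1 CPM with PFI-3, with Adgre1 at 0 in all 4 libraries, and 1 of them was called higher and 1 lower. The 6 adipocyte markers summed to 3.11 to 3.58 CPM and 4.93 to 6.32 CPM, nearly all of it Pparg, with Fabp4, Cidec, Plin1 and Cfd at 0. The smooth muscle list summed to 5100 to 5210 CPM with DMSO and 3570 to 3620 CPM with PFI-3, mostly Acta2, which C2C12 cells themselves express. Cardiac markers summed to 45.5 to 49.2 CPM and 39.7 to 43.9 CPM, bone and cartilage markers to 137 to 159 CPM and 132 to 135 CPM, and neural markers to 19.6 to 21.1 CPM and 8.15 to 9.29 CPM. The cardiac marker Myh6 and the neural marker Tubb3 were called lower, and the adipocyte marker Pparg was called higher. No marker of endothelium, smooth muscle, bone or cartilage was called. Whether cells of other types took part in any result was not tested.

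At 48 h, cells kept in PFI-3 had lower levels of genes of the sarcomere, of calcium handling and of muscle energy metabolism than cells kept in DMSO. Their levels of genes of DNA replication and mitosis were higher, as were those of targets of the aryl hydrocarbon receptor, of several chemokines and of part of the interferon-stimulated genes. In all, 3438 of 12545 genes tested were called at an adjusted p below 0.05 (27.4%), 1682 of them higher (13.4%) and 1756 lower (14.0%). Between 1937 and 2073 genes were called with any 1 of the 4 libraries left out, and 5688 when only these 4 libraries were fitted. Of the rises, 338 were at least 2-fold and 69 at least 4-fold, and of the falls 455 and 122. The median log2 fold change over all genes tested was 0.001. Fold changes below are PFI-3 over DMSO with the standard error of the edgeR fit, from 2 libraries per group. The libraries of the 2 treatments did not overlap for 71.3% of all genes tested, 35.5% with PFI-3 higher and 35.9% with PFI-3 lower, so a gap between the pairs is common and is given below only as a description. The balance between rises and falls differed between the count test and limma on log2(FPKM + 1), where no TMM scaling was applied. With limma, 2554 genes were higher and 1356 lower, so that 65.3% of calls were rises against 48.9% by the count test. The median log2 change over all genes was 0.071 on that FPKM scale.

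**Figure D1:**
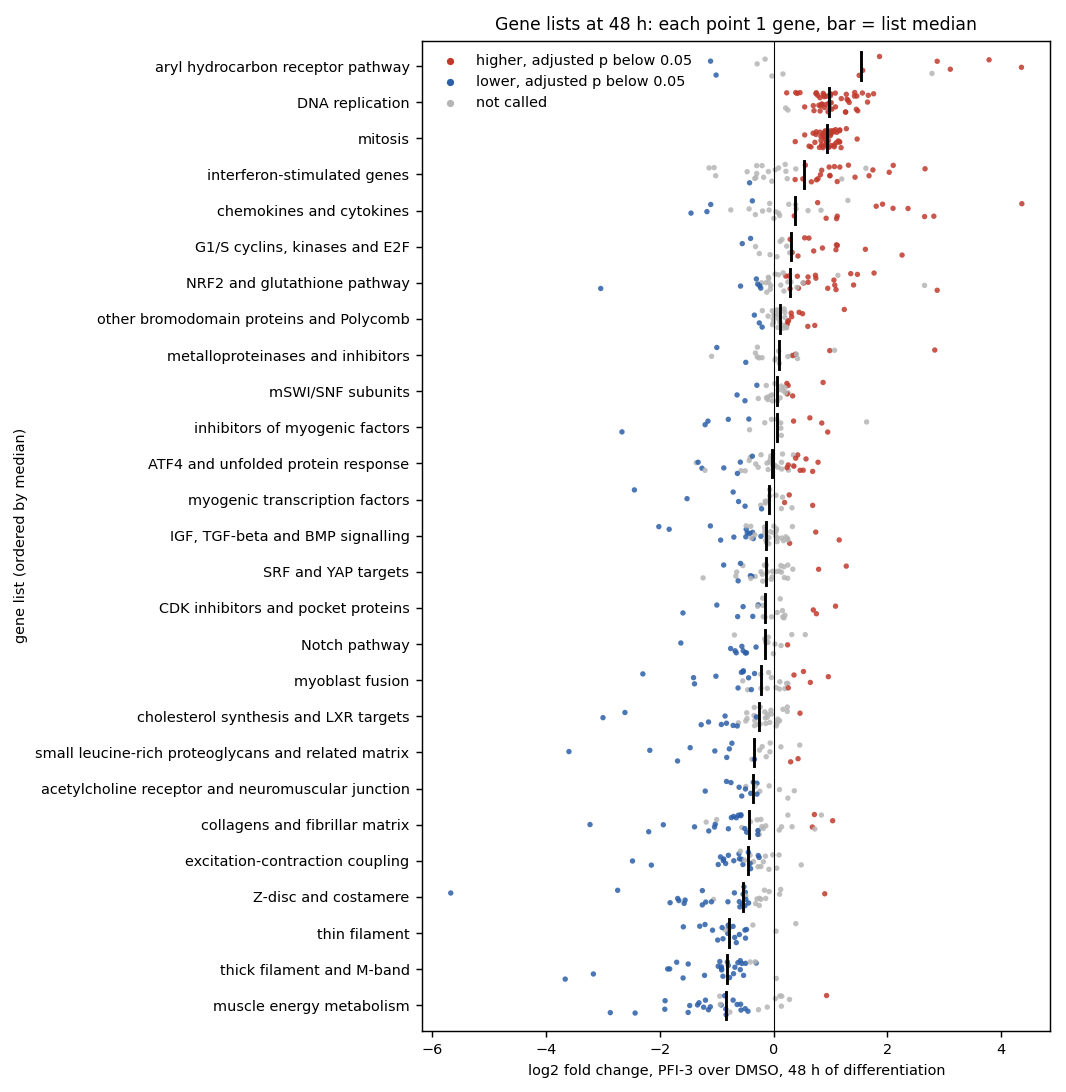
Log2 fold change of PFI-3 over DMSO at 48 h (x axis) for every tested member of 27 gene lists (y axis, ordered by list median); each point is 1 gene, coloured by direction where its adjusted p is below 0.05 and grey otherwise, and the black bar is the list median. DNA replication and mitosis lie almost wholly to the right of 0, with medians of 0.978 and 0.936, and the thick and thin filament lists almost wholly to the left, with medians of -0.812 and -0.788.

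The genes of the remodelling complex were examined first, since they encode what the compound binds. Of 25 mSWI/SNF subunits tested, 5 were called higher and 3 lower, against 13.4% and 14.0% of all genes, and the list median was 0.067. Smarca4 stood at 285 and 268 CPM with DMSO and 364 and 335 CPM with PFI-3, and both PFI-3 libraries lay above both DMSO libraries (log2 fold change 0.34 ± 0.08, adjusted p = 0.0068). That call was lost without library B of the DMSO group (adjusted p = 0.0803) or without library A of the PFI-3 group (0.0769). Smarca2 measured 68.4 and 63.6 CPM with DMSO and 81.2 and 76.4 CPM with PFI-3 (log2 fold change 0.26 ± 0.15, adjusted p = 0.248), and Pbrm1 158 and 172 CPM with DMSO and 175 and 171 CPM with PFI-3 (log2 fold change 0.07 ± 0.09, adjusted p = 0.62). Neither was called by the 12-library model. Smarca2 was called in the 8 differentiation libraries and in the fit of only these 4 libraries, without the replicate block and with it (adjusted p = 9.6e-05 with it). The PFI-3 libraries of Smarca2 lay above its DMSO libraries, and the groups of Pbrm1 overlapped. Scaled for length, Smarca4 averaged 42.0 FPKM with DMSO and 56.2 FPKM with PFI-3 and Smarca2 13.3 FPKM with DMSO and 16.6 FPKM with PFI-3, so the BRG1 transcript was the more abundant of the ATPases in both groups.

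Among accessory subunits, the 3 falls were those of Bicral, a component of the non-canonical complex, of Bcl7a and of Brd7, a bromodomain protein of the PBAF form. Bicral measured 58.7 and 52.1 CPM with DMSO and 37.1 and 33.9 CPM with PFI-3 (log2 fold change -0.64 ± 0.09, adjusted p = 0.000229). For Bcl7a the levels were 66.4 and 63.9 CPM with DMSO and 48.5 and 43.4 CPM with PFI-3 (log2 fold change -0.50 ± 0.13, adjusted p = 0.0146), and for Brd7 139 and 146 CPM with DMSO and 117 and 115 CPM with PFI-3 (log2 fold change -0.29 ± 0.06, adjusted p = 0.00437). All 3 genes had both PFI-3 libraries below both DMSO libraries, and the Bcl7a call was lost when either DMSO library or library B of PFI-3 was left out. The core subunit Smarcc1, the most abundant member that was not called, stood at 265 and 247 CPM with DMSO and 253 and 251 CPM with PFI-3 (log2 fold change -0.02 ± 0.07, adjusted p = 0.876) with overlapping groups. The remaining rises, in Smarcd1, Smarcd2, Actl6a and Dpf1, were between 0.23 and 0.87 on the log2 scale.

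Bromodomain proteins outside the complex and Polycomb proteins gave 3 falls (8.57%, against 14.0% of all genes) among 35 tested, with a median of 0.111. They gave 10 rises (28.6%, against 13.4% of all genes). The largest was Atad2, an ATPase with a bromodomain that is linked to S phase, at 49.5 and 52.4 CPM with DMSO and 119 and 122 CPM with PFI-3 (log2 fold change 1.24 ± 0.07, adjusted p = 4.12e-07). Its counts are fractional in every library, so its level is uncertain. Brpf3, a scaffold of a histone acetyltransferase complex, measured 28.2 and 26.4 CPM with DMSO and 43.1 and 39.9 CPM with PFI-3 (log2 fold change 0.60 ± 0.08, adjusted p = 0.000239). Ezh2, the methyltransferase of Polycomb complex 2, measured 36.7 and 35.7 CPM with DMSO and 51.3 and 51.8 CPM with PFI-3 (log2 fold change 0.51 ± 0.12, adjusted p = 0.00766), and its accessory factor Phf19 9.60 and 7.20 CPM with DMSO and 15.0 and 12.8 CPM with PFI-3 (log2 fold change 0.72 ± 0.18, adjusted p = 0.00922). In all 4 genes the PFI-3 libraries were the higher pair. The Ezh2 call was lost without library B of DMSO (adjusted p = 0.065), and that of Phf19 without that library (0.109) or without library A of PFI-3 (0.0848). Rbbp4, a histone chaperone shared by several complexes, stood at 409 and 414 CPM with DMSO and 378 and 391 CPM with PFI-3 and was not called (adjusted p = 0.229).

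Of 19 myogenic transcription factors tested, 3 were called higher (15.8%, against 13.4% of all genes) and 6 lower (31.6%, against 14.0%), with a median of -0.088. Mef2c, the MEF2 factor whose transcript accumulates late in differentiation, stood at 71.8 and 73.3 CPM with DMSO and 13.4 and 13.2 CPM with PFI-3, 5.45-fold lower with PFI-3 (log2 fold change -2.45 ± 0.18, adjusted p = 2.35e-06). Myog measured 1822 and 1845 CPM with DMSO and 1214 and 1179 CPM with PFI-3 (log2 fold change -0.62 ± 0.07, adjusted p = 8.37e-05). Myod1 measured 463 and 428 CPM with DMSO and 378 and 383 CPM with PFI-3 and was not called (log2 fold change -0.23 ± 0.13, adjusted p = 0.206). For each of these genes both PFI-3 values were below both DMSO values, but the distance ranged from more than 5-fold in Mef2c to a shift in Myod1 that the model did not separate from replicate spread. The Myog call was lost on log2(FPKM + 0.1) with limma (adjusted p = 0.158), and Myod1 was called in the fit of only these 4 libraries (0.00014). On the length-scaled measure, the order with DMSO was Myog, with 1217 FPKM with DMSO and 844 FPKM with PFI-3, then Myod1, with 239.5 FPKM with DMSO and 217 FPKM with PFI-3, then Mef2c, with 11.0 FPKM with DMSO and 2.14 FPKM with PFI-3.

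Pax7, a marker of muscle progenitors, stood at 228 and 209 CPM with DMSO and 136 and 130.5 CPM with PFI-3 (log2 fold change -0.71 ± 0.11, adjusted p = 0.000393), so the PFI-3 libraries were lower for it too. Eya1, a transcriptional cofactor in the myogenic network, measured 29.0 and 27.7 CPM with DMSO and 45.6 and 45.8 CPM with PFI-3, with the PFI-3 libraries higher (log2 fold change 0.69 ± 0.18, adjusted p = 0.013), but that call was lost when any 1 of the 4 libraries was left out. The remaining calls were falls of Myf6 (-1.52), Mef2d (-0.50) and Six4 (-0.21) and rises of Eya4 (0.28) and Mef2a (0.19).

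Proteins that restrain myogenic factors moved in both directions rather than as a group. Of 17 tested, 4 were called higher (23.5%, against 13.4% of all genes) and 5 lower (29.4%, against 14.0%). The list median was 0.058. Id1, which sequesters the E-protein partners of MyoD, measured 16.1 and 15.2 CPM with DMSO and 29.5 and 31.1 CPM with PFI-3 (log2 fold change 0.95 ± 0.11, adjusted p = 7.38e-05). Twist2, a basic helix-loop-helix repressor, measured 6.99 and 6.95 CPM with DMSO and 13.6 and 11.5 CPM with PFI-3 (log2 fold change 0.85 ± 0.22, adjusted p = 0.0147). Both had the PFI-3 libraries above the DMSO libraries, and the Twist2 call was lost without library A or B of DMSO or library A of PFI-3. Id3 rose by 0.64 and Snai2 by 0.35 on the log2 scale.

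In the opposite direction, Bhlhe40 stood at 177 and 177 CPM with DMSO and 81.3 and 77.4 CPM with PFI-3 (log2 fold change -1.15 ± 0.08, adjusted p = 2.24e-06). Mdfi, which holds MyoD-family proteins in the cytoplasm, measured 13.0 and 14.4 CPM with DMSO and 6.03 and 5.86 CPM with PFI-3 (log2 fold change -1.20 ± 0.17, adjusted p = 0.000272). Both fell by more than 2-fold with no overlap of groups. Msc, Hdac9 and Zeb1 were the other falls, at -2.67, -0.80 and -0.44. Zeb2, the most abundant of those not called, stood at 159 and 171 CPM with DMSO and 175 and 169 CPM with PFI-3.

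The contractile apparatus was lower almost throughout. Over 4 lists of thick filament, thin filament, Z-disc and calcium-handling genes, 83 of 116 members tested were called lower (71.6%, against 14.0% of all genes) and 1 was called higher, with a median of -0.605. In bulk RNA, fewer differentiated cells and less RNA per cell cannot be told apart. Most of these genes rose between 24 h and 48 h in both treatments: 109 of the 116 were called higher at 48 h than at 24 h with DMSO (24.2% of all genes) and 103 with PFI-3 (13.1% of all genes). The median log2 change over this interval was 2.543 with DMSO and 3.129 with PFI-3. The lower levels at 48 h thus followed a rise in both treatments.

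In the thick filament and M-band list, 26 of 29 members were lower (89.7%, against 14.0% of all genes) and none higher (13.4% of all genes), with a median of -0.812. Igfn1, a large muscle protein with immunoglobulin and fibronectin domains, stood at 54.4 and 57.8 CPM with DMSO and 4.07 and 4.76 CPM with PFI-3, 12.7-fold lower (log2 fold change -3.66 ± 0.22, adjusted p = 1.16e-06). Mybpc1, the slow myosin-binding protein C, measured 41.7 and 46.5 CPM with DMSO and 12.5 and 12.4 CPM with PFI-3 (log2 fold change -1.83 ± 0.12, adjusted p = 4.44e-06). All PFI-3 values of these genes were far below the DMSO values. The essential light chains Myl4, the embryonic and atrial form, and Myl6b stood at 696 and 712 CPM against 211 and 222 CPM for DMSO against PFI-3 (log2 fold change -1.70 ± 0.07, adjusted p = 5.6e-08) and at 239 and 240.5 CPM against 64.3 and 67.7 CPM (log2 fold change -1.86 ± 0.15, adjusted p = 3.51e-06). Neither pair of groups overlapped. Among myosin heavy chains the called falls ran from perinatal Myh8 (-1.59) through embryonic Myh3 (-0.58) to Myh1 (-0.56). Trim55, a ring-finger protein of the M-band, was the most abundant of the 3 members not called, with 91.8 and 95.6 CPM with DMSO and 73.2 and 76.6 CPM with PFI-3 (adjusted p = 0.101), and it was called in the fit of only these 4 libraries.

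In the thin filament list, 17 of 21 members were lower (81.0%, against 14.0% of all genes) and none higher (13.4% of all genes), with a median of -0.788. The troponins led. Tnni2, fast troponin I, measured 265 and 288 CPM with DMSO and 88.7 and 95.3 CPM with PFI-3 (log2 fold change -1.59 ± 0.11, adjusted p = 2.35e-06). Tnnt1, slow troponin T, measured 372 and 368 CPM with DMSO and 153 and 148 CPM with PFI-3 (log2 fold change -1.30 ± 0.08, adjusted p = 8.2e-07). Tnni1, slow troponin I, measured 1059 and 1115 CPM with DMSO and 497 and 535 CPM with PFI-3 (log2 fold change -1.07 ± 0.07, adjusted p = 1.4e-06). Slow and fast isoforms were therefore lower together, with no overlap between treatments, although the Tnni2 call was lost on log2(FPKM + 0.1) with limma (adjusted p = 0.0546). Lmod2, a leiomodin that elongates actin filaments, measured 141 and 144 CPM with DMSO and 58.7 and 64.6 CPM with PFI-3 (log2 fold change -1.21 ± 0.10, adjusted p = 1.28e-05). Tropomyosin Tpm1, which non-muscle cells also express, stood at 1481 and 1526 CPM with DMSO and 1180.1 and 1156 CPM with PFI-3 and was not called (adjusted p = 0.0752), although it was called with DESeq2 (0.0312).

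In the Z-disc and costamere list, 22 of 35 members were lower (62.9%, against 14.0% of all genes) and 1 was higher (2.86%, against 13.4%), with a median of -0.536. Tcap, or telethonin, which caps titin at the Z-disc, stood at 19.8 and 21.6 CPM with DMSO and 3.60 and 2.58 CPM with PFI-3, 6.69-fold lower (log2 fold change -2.74 ± 0.27, adjusted p = 1.63e-05). Actn2, the muscle alpha-actinin that crosslinks actin there, stood at 395 and 376 CPM with DMSO and 111 and 107 CPM with PFI-3 (log2 fold change -1.82 ± 0.09, adjusted p = 1.71e-07). Myoz2 and Csrp3, which bind alpha-actinin, measured 61.1 and 63.0 CPM against 17.2 and 21.9 CPM for DMSO against PFI-3 (-1.67 ± 0.13 on the log2 scale) and 37.3 and 43.2 CPM against 14.2 and 12.9 CPM (-1.57 ± 0.15). In each of the 4 genes the higher PFI-3 library was below the lower DMSO library. Myot, or myotilin, another Z-disc protein, had the lowest fitted value of the list, with 8.21 and 8.75 CPM with DMSO and 0.235 and 0.078 CPM with PFI-3 (adjusted p = 1.92e-05). Desmin (Des), the intermediate filament that myoblasts already carry, was at 2125 and 2068 CPM with DMSO and 1844 and 1747 CPM with PFI-3 and was not called (adjusted p = 0.0786). The 1 rise was that of synemin (Synm), a desmin partner, at 0.90.

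**Figure D2:**
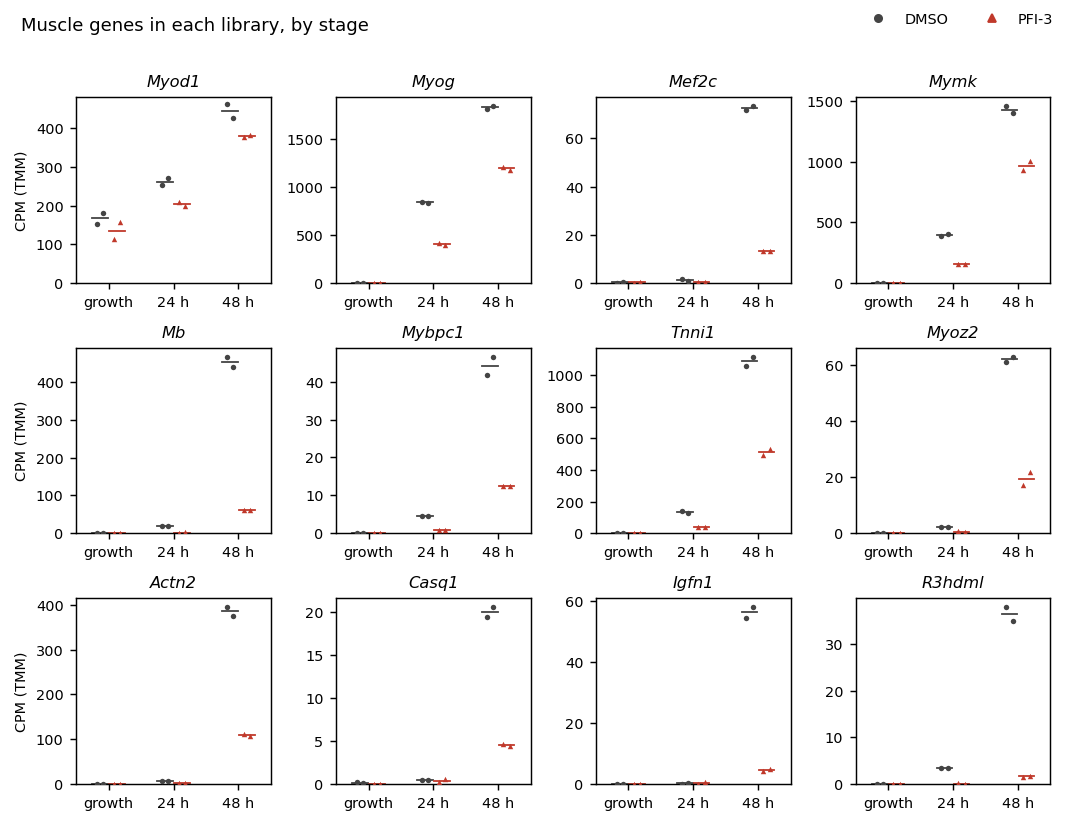
TMM-scaled CPM (y axis, linear from 0) of 12 muscle genes in each of the 12 libraries, by stage (x axis: proliferating cells, 24 h and 48 h of differentiation); circles are DMSO, triangles PFI-3 and short bars the mean of 2 libraries. At 48 h the DMSO libraries of every gene shown lie above its PFI-3 libraries, by a small distance for Myod1 and a large one for Mef2c, Mb, Igfn1 and R3hdml.

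Promoters of 4 genes of these lists, 1 of them the calcium buffer gene Casq1 described next, are shown as examples that hold an E-box, a site where myogenic factors act. They were picked after the search, for holding CAGCTG. Each is the 250 bases before the RefSeq transcription start in GRCm38.p6, 5′ to 3′ on the gene's strand, and capitals mark the E-box CAGCTG and the MEF2 motif. Igfn1 lies at chr1:136006343-136006592, Myoz2 at chr3:123034988-123035237, Casq1 at chr1:172219896-172220145 and Mybpc1 at chr10:88605153-88605402, all on the minus strand.
Igfn1: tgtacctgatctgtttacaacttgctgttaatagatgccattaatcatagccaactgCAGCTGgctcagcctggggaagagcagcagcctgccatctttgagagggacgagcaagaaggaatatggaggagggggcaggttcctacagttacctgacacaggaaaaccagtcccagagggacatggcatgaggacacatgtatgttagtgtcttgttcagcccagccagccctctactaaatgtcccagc
Myoz2: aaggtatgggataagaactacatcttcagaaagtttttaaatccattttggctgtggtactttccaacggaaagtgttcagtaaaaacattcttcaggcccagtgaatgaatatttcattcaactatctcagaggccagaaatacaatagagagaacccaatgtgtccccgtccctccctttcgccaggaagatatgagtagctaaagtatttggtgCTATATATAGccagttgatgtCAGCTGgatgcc
Casq1: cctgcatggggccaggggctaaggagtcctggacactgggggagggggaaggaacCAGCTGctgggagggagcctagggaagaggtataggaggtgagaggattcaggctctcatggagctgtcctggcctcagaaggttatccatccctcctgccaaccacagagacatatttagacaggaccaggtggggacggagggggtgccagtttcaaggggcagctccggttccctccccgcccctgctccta
Mybpc1: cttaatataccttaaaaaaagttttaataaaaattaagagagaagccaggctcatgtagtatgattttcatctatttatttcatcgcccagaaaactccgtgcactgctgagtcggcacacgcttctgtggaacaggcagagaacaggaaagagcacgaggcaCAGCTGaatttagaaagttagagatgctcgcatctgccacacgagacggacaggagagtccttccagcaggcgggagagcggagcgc
In Myoz2 the E-box spans bases -12 to -7 and the MEF2 motif bases -33 to -24, counted back from the start. Of the 116 contractile and calcium-handling genes tested, 86 matched the RefSeq promoter table, with 103 promoters. CAGCTG, searched on both strands, was in 33.0% of them and in 13.0% of all 32851 promoters, and the MEF2 motif, searched in the same way, in 13.6% and 2.92%. A match is a run of letters in the window, and binding was not measured here.

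Calcium handling and the membrane systems followed the sarcomere. Of 31 genes of excitation-contraction coupling, 18 were lower and none higher, with a median of -0.444. Casq1, the calcium buffer of the fast-fibre reticulum, stood at 19.4 and 20.5 CPM with DMSO and 4.62 and 4.37 CPM with PFI-3 (log2 fold change -2.15 ± 0.21, adjusted p = 2.64e-05). Atp2a1, the fast-fibre calcium pump, measured 1319 and 1306 CPM with DMSO and 670.0 and 667 CPM with PFI-3 (log2 fold change -0.97 ± 0.07, adjusted p = 1.42e-06). Jsrp1, a triad protein, and Cav3, muscle caveolin, measured 122 and 127 CPM against 68.6 and 62.0 CPM for DMSO against PFI-3 (-0.93 ± 0.08 on the log2 scale) and 77.7 and 83.7 CPM against 42.3 and 45.1 CPM (-0.88 ± 0.12). The groups were apart for all 4 genes, with Casq1 the most affected. Junctophilin Jph2 stood at 439 and 413 CPM with DMSO and 375 and 330.0 CPM with PFI-3 and was not called (adjusted p = 0.0619), though it was in the fit of only these 4 libraries.

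Of 17 genes of the acetylcholine receptor and the neuromuscular junction, 10 were lower (58.8%, against 14.0% of all genes). None was higher, and the median was -0.357. Chrnb1, the beta subunit of the receptor, stood at 241 and 236 CPM with DMSO and 128 and 141 CPM with PFI-3 (log2 fold change -0.83 ± 0.07, adjusted p = 4.44e-06). Ache, the esterase of the synapse, measured 14.5 and 14.2 CPM with DMSO and 6.58 and 5.86 CPM with PFI-3 (log2 fold change -1.20 ± 0.23, adjusted p = 0.0022). Both were lower in both PFI-3 libraries. Ncam1, a neural cell adhesion molecule that marks regenerating muscle, and Etv5, an ETS factor of synaptic nuclei, measured 988 and 963 CPM against 653 and 629.6 CPM for DMSO against PFI-3 (-0.61 ± 0.11) and 13.3 and 13.6 CPM against 8.38 and 7.57 CPM (-0.75 ± 0.14). Nestin (Nes) was at 1392 and 1384 CPM with DMSO and 1172 and 1043 CPM with PFI-3 and was not called (adjusted p = 0.142).

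Fusion genes moved in both directions. Of 29 tested, 5 were called higher (17.2%, against 13.4% of all genes) and 11 lower (37.9%, against 14.0%), with a median of -0.222. Mymx, or myomixer, one of the muscle-specific fusogens, stood at 192 and 196 CPM with DMSO and 72.5 and 75.3 CPM with PFI-3, 2.62-fold lower (log2 fold change -1.39 ± 0.07, adjusted p = 8.36e-07). Its partner Mymk, or myomaker, measured 1459 and 1406 CPM with DMSO and 929 and 1006 CPM with PFI-3 (-0.57 on the log2 scale). The groups did not overlap for either, and the fall of Mymx was the larger by fold.

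Nfatc2, which controls recruitment of myoblasts to young myotubes, measured 11.9 and 11.3 CPM with DMSO and 2.43 and 2.26 CPM with PFI-3 (log2 fold change -2.30 ± 0.26, adjusted p = 5.29e-05). Adgrg1, an adhesion receptor, measured 223 and 211 CPM with DMSO and 83.3 and 80.3 CPM with PFI-3 (log2 fold change -1.41 ± 0.11, adjusted p = 4.02e-06). Tmem182, a muscle membrane protein, measured 53.8 and 53.3 CPM with DMSO and 27.7 and 25.4 CPM with PFI-3 (log2 fold change -1.01 ± 0.15, adjusted p = 0.000352). All 3 had DMSO libraries above the PFI-3 libraries, though the Tmem182 call was lost on log2(FPKM + 0.1) with limma (adjusted p = 0.0988). The rises were in Arhgap26 (0.96), Itga3 (0.65), Elmo2 (0.53), Kirrel (0.36) and Myof (0.26). The integrin Itgb1 stood at 648 and 671 CPM with DMSO and 687 and 671 CPM with PFI-3 and was not called (adjusted p = 0.861).

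Muscle energy metabolism was the list with the lowest median. Of 33 genes, 22 were lower (66.7%, against 14.0% of all genes) and 1, Lpl, was higher (0.93), with a median of -0.84. Mb, or myoglobin, the oxygen store of muscle, stood at 467 and 439.8 CPM with DMSO and 62.4 and 61.5 CPM with PFI-3, 7.32-fold lower (log2 fold change -2.87 ± 0.10, adjusted p = 5.6e-08). Art1, a muscle ADP-ribosyltransferase, measured 33.2 and 33.3 CPM with DMSO and 6.27 and 6.01 CPM with PFI-3 (log2 fold change -2.43 ± 0.16, adjusted p = 3.94e-06). Cox6a2, the muscle isoform of a cytochrome oxidase subunit, measured 75.6 and 75.3 CPM with DMSO and 19.2 and 21.0 CPM with PFI-3 (log2 fold change -1.91 ± 0.13, adjusted p = 1.45e-06). These were all several-fold falls with wide gaps between treatments. Ampd1, muscle AMP deaminase, measured 10.8 and 11.6 CPM with DMSO and 3.13 and 2.81 CPM with PFI-3 (log2 fold change -1.91 ± 0.25, adjusted p = 0.000347). The creatine transporter Slc6a8 stood at 156 and 146 CPM with DMSO and 168 and 166 CPM with PFI-3 and was not called (adjusted p = 0.409). Smaller falls covered glycogen and glycolysis, from Gys1 (-1.20) and Pygm (-1.11) to Pgam2 (-0.71), Aldoa (-0.64) and Pfkm (-0.58).

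The cell cycle genes showed the most uniform response. Of 52 DNA replication genes, 50 were higher (96.2%, against 13.4% of all genes) and none lower, with a median of 0.978. Of 55 genes of mitosis, all 55 were higher, with a median of 0.936 and a range from 0.381 to 1.469. The exceptions in replication were Rfc4 and Rpa3, and Rpa3, a subunit of the single-strand binding protein, measured 9.03 and 9.08 CPM with DMSO and 9.32 and 12.3 CPM with PFI-3 (adjusted p = 0.273). Between 99 and 102 of the 105 rises were still called with any 1 of the 4 libraries left out.

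Cdc6, which loads the MCM helicase onto origins, stood at 6.34 and 5.89 CPM with DMSO and 20.9 and 20.5 CPM with PFI-3, 3.38-fold higher (log2 fold change 1.76 ± 0.20, adjusted p = 4.52e-05). Chaf1b, of the chromatin assembly factor, measured 10.6 and 9.24 CPM with DMSO and 31.2 and 31.2 CPM with PFI-3 (log2 fold change 1.65 ± 0.09, adjusted p = 2.96e-07). PFI-3 values of both were about 3 times the DMSO values, with no overlap.

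For mitosis, Cenph, a kinetochore protein, stood at 3.01 and 2.37 CPM with DMSO and 6.97 and 7.96 CPM with PFI-3 (log2 fold change 1.47 ± 0.18, adjusted p = 8.37e-05). Nek2, a centrosomal kinase, measured 21.3 and 20.4 CPM with DMSO and 51.0 and 50.2 CPM with PFI-3 (log2 fold change 1.28 ± 0.10, adjusted p = 2.35e-06). Ccnf, cyclin F, measured 23.5 and 27.3 CPM with DMSO and 56.6 and 59.1 CPM with PFI-3 (log2 fold change 1.19 ± 0.10, adjusted p = 6.23e-06). All lay more than 2-fold higher in both PFI-3 libraries. Hmmr, a spindle protein, measured 29.1 and 32.3 CPM with DMSO and 70.3 and 67.4 CPM with PFI-3 (log2 fold change 1.17 ± 0.11, adjusted p = 9.82e-06), but its counts are fractional in every library and so are uncertain. Cdk1, the mitotic kinase, measured 43.7 and 47.5 CPM with DMSO and 88.4 and 89.2 CPM with PFI-3 (0.96 ± 0.08 on the log2 scale).

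These levels are high relative to DMSO at 48 h and low relative to earlier stages. Between 24 h and 48 h, all 107 replication and mitosis genes were called lower with DMSO (23.9% of all genes), with a median of -1.639. With PFI-3, 96 of the 107 were called lower (14.2% of all genes), with a median of -0.479. Cdc6 shows the pattern: it was at 33.1 and 33.7 CPM with DMSO and 28.5 and 29.4 CPM with PFI-3 at 24 h, then fell by 2.45 and 0.48 on the log2 scale. The transcripts of the cell cycle were thus declining in both treatments, and by less with PFI-3.

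**Figure D3:**
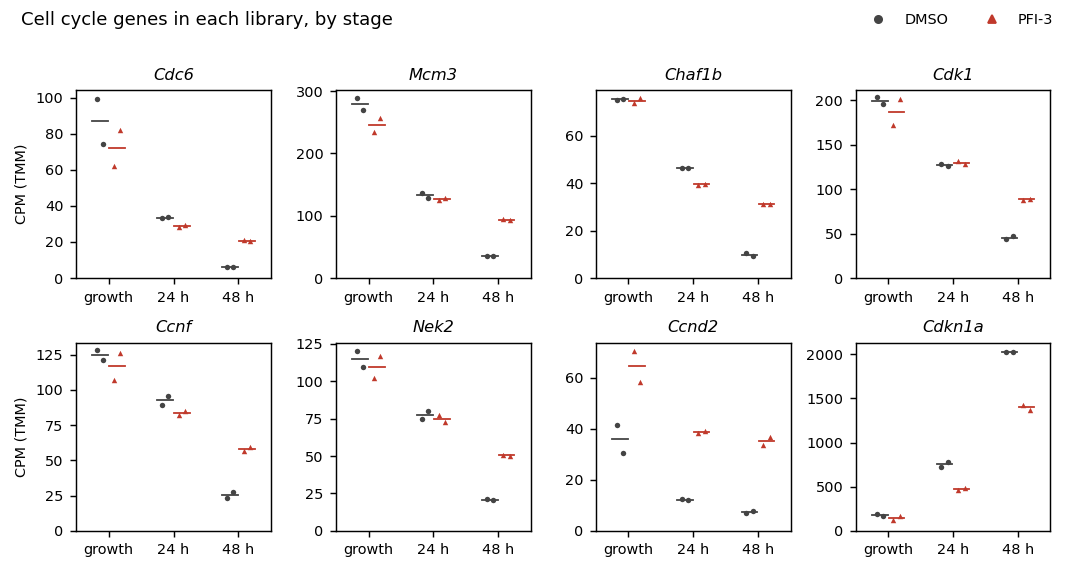
TMM-scaled CPM (y axis, linear from 0) of 8 cell cycle genes in each of the 12 libraries, by stage (x axis); circles are DMSO, triangles PFI-3 and short bars the mean of 2 libraries. Cdc6, Mcm3, Chaf1b, Cdk1, Ccnf and Nek2 decline over the stages in both treatments and are higher with PFI-3 at 48 h, while the inhibitor Cdkn1a climbs and is lower with PFI-3.

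Promoters of a replication gene and of 2 mitosis genes are shown as examples. They were picked for holding an element through which E2F proteins or the MuvB complex are known to act, and binding was not measured here. Capitals mark an E2F motif (TTTGGCGC, TTTCGCGC, TTTCCCGC or TTTGCCGC, either strand) and the cell cycle homology element TTTGAA (either strand). The windows are Cdc6 at chr11:98907901-98908150 on the plus strand, Cdk1 at chr10:69352913-69353162 and Ccnf at chr17:24251410-24251659, both on the minus strand, from RefSeq in GRCm38.p6.
Cdc6: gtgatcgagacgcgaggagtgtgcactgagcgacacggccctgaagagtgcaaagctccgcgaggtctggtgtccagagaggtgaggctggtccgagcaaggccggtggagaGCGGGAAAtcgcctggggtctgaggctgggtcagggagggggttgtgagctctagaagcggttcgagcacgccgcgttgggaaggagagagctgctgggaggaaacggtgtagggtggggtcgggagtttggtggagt
Cdk1: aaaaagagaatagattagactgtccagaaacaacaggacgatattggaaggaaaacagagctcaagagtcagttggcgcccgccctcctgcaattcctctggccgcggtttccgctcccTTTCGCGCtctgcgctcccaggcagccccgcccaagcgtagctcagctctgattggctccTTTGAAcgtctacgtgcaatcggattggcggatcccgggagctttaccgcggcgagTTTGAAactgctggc
Ccnf: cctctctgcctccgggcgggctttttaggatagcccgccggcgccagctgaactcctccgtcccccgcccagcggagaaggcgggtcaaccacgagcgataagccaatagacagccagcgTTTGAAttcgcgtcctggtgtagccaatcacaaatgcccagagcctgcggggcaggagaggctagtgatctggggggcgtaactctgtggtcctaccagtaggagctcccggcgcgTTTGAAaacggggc
In Cdk1 one TTTGAA spans bases -15 to -10 and in Ccnf bases -14 to -9, close to the start in both. An E2F motif was in 19.6% of 51 promoters of replication genes and 8.33% of 48 promoters of mitosis genes, against 1.86% of all promoters. TTTGAA was in 13.7% of the replication promoters and 35.4% of the mitosis promoters, against 16.0% of all. Of the genes listed, 42 of 52 and 46 of 55 matched the table.

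Regulators of the G1 to S transition were higher more often than lower. Of 22, 12 rose (54.5%, against 13.4% of all genes) and 2 fell (9.09%, against 14.0%), with a median of 0.31. Ccnd2, a D-type cyclin, stood at 6.91 and 7.77 CPM with DMSO and 33.7 and 36.7 CPM with PFI-3, 4.79-fold higher (log2 fold change 2.26 ± 0.16, adjusted p = 2.13e-06). Ccne1, cyclin E1, measured 10.6 and 11.1 CPM with DMSO and 33.1 and 33.3 CPM with PFI-3 (log2 fold change 1.61 ± 0.13, adjusted p = 4.44e-06), and Ccne2 13.5 and 13.0 CPM with DMSO and 29.1 and 28.6 CPM with PFI-3 (log2 fold change 1.12 ± 0.15, adjusted p = 0.00014). E2f1 measured 19.6 and 20.9 CPM with DMSO and 46.4 and 41.0 CPM with PFI-3 (log2 fold change 1.10 ± 0.09, adjusted p = 4.37e-06), with fractional counts in 75% of the libraries. All 4 were higher in both PFI-3 libraries without overlap. The falls were Ccnd3 (-0.55), the D-type cyclin that persists in differentiated muscle, and Cdk2 (-0.40). E2f2 stood at 175 and 174 CPM with DMSO and 146 and 135 CPM with PFI-3 and was not called (adjusted p = 0.15).

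Of 21 CDK inhibitors and pocket proteins tested, 3 rose (14.3%, near the 13.4% of all genes) and 6 fell (28.6%, against 14.0%), with a median of -0.151. Cdkn1c, or p57, an inhibitor induced on muscle differentiation, stood at 1026 and 1032 CPM with DMSO and 340.4 and 342 CPM with PFI-3, 3.02-fold lower (log2 fold change -1.59 ± 0.11, adjusted p = 1.56e-06). Gadd45b measured 41.8 and 44.6 CPM with DMSO and 19.5 and 23.7 CPM with PFI-3 (log2 fold change -0.998 ± 0.12, adjusted p = 6.25e-05). Both were lower in both PFI-3 libraries, as was Cdkn1a, or p21 (-0.54). Rbl1, or p107, the pocket protein of cycling cells, measured 21.6 and 22.5 CPM with DMSO and 45.9 and 48.0 CPM with PFI-3 (log2 fold change 1.09 ± 0.10, adjusted p = 9.92e-06), and the MuvB subunit Lin54 17.2 and 14.2 CPM with DMSO and 24.2 and 28.6 CPM with PFI-3 (log2 fold change 0.75 ± 0.12, adjusted p = 0.000692). These 2 were higher without overlap. Ccng1, a target of p53, stood at 263 and 272 CPM with DMSO and 277 and 283 CPM with PFI-3 and was not called (adjusted p = 0.682).

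The extracellular matrix was lower in part. Of 38 genes of collagens and fibrillar matrix, 18 were lower (47.4%, against 14.0% of all genes) and 3 higher (7.89%, against 13.4%). Their median was -0.439. Postn, or periostin, stood at 108 and 103 CPM with DMSO and 10.1 and 12.4 CPM with PFI-3, 9.37-fold lower (log2 fold change -3.23 ± 0.15, adjusted p = 1.71e-07). Col1a1, the alpha 1 chain of type I collagen, measured 594 and 576 CPM with DMSO and 129 and 126 CPM with PFI-3 (log2 fold change -2.20 ± 0.06, adjusted p = 3.88e-09). Tnc, tenascin C, measured 257 and 263 CPM with DMSO and 68.2 and 67.4 CPM with PFI-3 (log2 fold change -1.94 ± 0.26, adjusted p = 0.000171). These differences were each close to 4-fold or more, far outside the replicate spread. Col8a1 measured 58.4 and 60.5 CPM with DMSO and 23.4 and 21.9 CPM with PFI-3 (log2 fold change -1.39 ± 0.11, adjusted p = 2.98e-06). Fibronectin (Fn1), the most abundant of those not called, was at 3768 and 3551 CPM with DMSO and 3149.8 and 2925 CPM with PFI-3 (adjusted p = 0.192). The rises were Col12a1 (1.04), Pcolce (0.72) and Loxl3 (0.68).

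Small leucine-rich proteoglycans and related matrix gave 9 falls (47.4%, against 14.0% of all genes) and 2 rises (10.5%, against 13.4%) among 19. Their median was -0.336. Cilp, a cartilage matrix protein that binds TGF-beta, stood at 25.2 and 28.1 CPM with DMSO and 2.04 and 2.34 CPM with PFI-3 (log2 fold change -3.60 ± 0.20, adjusted p = 8.2e-07). Fmod, fibromodulin, measured 17.2 and 14.6 CPM with DMSO and 3.29 and 3.75 CPM with PFI-3 (log2 fold change -2.18 ± 0.24, adjusted p = 4.17e-05), and Aspn, asporin, 18.2 and 22.2 CPM with DMSO and 6.42 and 6.09 CPM with PFI-3 (log2 fold change -1.69 ± 0.18, adjusted p = 3.64e-05). Bgn, biglycan, by far the most abundant of these 4, measured 2469 and 2316 CPM with DMSO and 868 and 863 CPM with PFI-3 (log2 fold change -1.47 ± 0.07, adjusted p = 2.12e-07). All were lower without overlap. Perlecan (Hspg2) was at 1831 and 1700.1 CPM with DMSO and 1589 and 1387 CPM with PFI-3 with an adjusted p of 0.0507, just short of the threshold, and was called under 9 of 14 other settings.

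Among 21 metalloproteinases and inhibitors, 4 rose (13.4% of all genes) and 2 fell (9.52%, against 14.0% of all genes), shares not far from those of all genes, with a median of 0.088. Timp3 stood at 169 and 178 CPM with DMSO and 85.5 and 88.4 CPM with PFI-3 (log2 fold change -0.998 ± 0.11, adjusted p = 3.35e-05), and Plat, tissue plasminogen activator, at 35.1 and 35.3 CPM with DMSO and 25.8 and 24.4 CPM with PFI-3 (log2 fold change -0.49 ± 0.08, adjusted p = 0.000985). Both were lower with PFI-3. Timp2 measured 1256 and 1240.4 CPM with DMSO and 1588 and 1576 CPM with PFI-3 (log2 fold change 0.34 ± 0.09, adjusted p = 0.016) and Adamts4 69.9 and 76.5 CPM with DMSO and 97.5 and 93.6 CPM with PFI-3 (log2 fold change 0.38 ± 0.09, adjusted p = 0.00743). Both of these were higher by less than 1.5-fold. The Timp2 call was lost when any 1 of the 4 libraries was left out, the Adamts4 call without library A of either group, and fractional counts in 58.3% of libraries make Adamts4 uncertain. Mmp14, the membrane collagenase, was at 596 and 572 CPM with DMSO and 648 and 605 CPM with PFI-3 and was not called (adjusted p = 0.305).

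Secreted regulators of muscle growth included some of the larger falls. In the list of IGF, TGF-beta and BMP signalling, 12 of 42 genes fell (28.6%, against 14.0% of all genes). Another 3 rose (7.14%, against 13.4%), and the median was -0.125. Fst, follistatin, which binds activins and myostatin, stood at 262 and 268 CPM with DMSO and 67.4 and 63.2 CPM with PFI-3, 4.05-fold lower (log2 fold change -2.02 ± 0.13, adjusted p = 1.18e-06). Fstl3, a related binding protein, measured 42.2 and 32.0 CPM with DMSO and 18.5 and 15.8 CPM with PFI-3 (log2 fold change -1.11 ± 0.19, adjusted p = 0.00101), and Bmp6 13.6 and 13.8 CPM with DMSO and 3.52 and 4.14 CPM with PFI-3 (log2 fold change -1.84 ± 0.26, adjusted p = 0.000296). The BMP antagonist Grem1 went the other way, at 28.1 and 28.7 CPM with DMSO and 68.5 and 57.8 CPM with PFI-3 (log2 fold change 1.15 ± 0.08, adjusted p = 2.24e-06). None of these 4 had overlapping groups. Igfbp5, an IGF-binding protein and the most abundant of those not called, stood at 10008 and 9524 CPM with DMSO and 10861 and 10709 CPM with PFI-3 (adjusted p = 0.896).

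In the Notch pathway, 9 of 21 genes fell (42.9%, against 14.0% of all genes) and 1 rose (4.76%, against 13.4%). The list median was -0.156. The receptors Notch1 and Notch3 measured 348 and 325 CPM with DMSO and 215 and 206 CPM with PFI-3 (log2 fold change -0.68 ± 0.11, adjusted p = 0.000531) and 604 and 606 CPM with DMSO and 397 and 370.1 CPM with PFI-3 (log2 fold change -0.66 ± 0.18, adjusted p = 0.0184). Among targets, Nrarp, a feedback inhibitor, measured 8.86 and 10.1 CPM with DMSO and 2.04 and 4.06 CPM with PFI-3 (log2 fold change -1.63 ± 0.26, adjusted p = 0.000612) and Heyl 218 and 199 CPM with DMSO and 127 and 119.6 CPM with PFI-3 (log2 fold change -0.76 ± 0.13, adjusted p = 0.00137). All 4 were lower in both PFI-3 libraries. The Notch3 call was lost with DESeq2 (adjusted p = 0.0656), on both FPKM scales and with any 1 of the 4 libraries left out, and the Heyl call on log2(FPKM + 0.1) (0.184). Notch2 stood at 464 and 437 CPM with DMSO and 465 and 434 CPM with PFI-3 and was not called (adjusted p = 0.973).

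Targets of SRF and YAP changed in few cases: 2 of 31 rose and 5 fell, less than the 13.4% and close to the 14.0% of all genes, with a median of -0.127. Junb, an AP-1 protein, stood at 429 and 405 CPM with DMSO and 232 and 222 CPM with PFI-3 (log2 fold change -0.88 ± 0.09, adjusted p = 3.37e-05), and the immediate early gene Ier2 at 72.0 and 66.1 CPM with DMSO and 44.6 and 45.0 CPM with PFI-3 (log2 fold change -0.62 ± 0.09, adjusted p = 0.000378). Crim1 measured 6.02 and 6.71 CPM with DMSO and 14.6 and 16.2 CPM with PFI-3 (log2 fold change 1.28 ± 0.16, adjusted p = 9.94e-05) and Fosl1 13.8 and 13.2 CPM with DMSO and 21.5 and 25.3 CPM with PFI-3 (log2 fold change 0.79 ± 0.14, adjusted p = 0.00129). The first pair was lower and the second higher, each without overlap. Acta2, the smooth muscle actin of young myotubes, stood at 4962 and 4858 CPM with DMSO and 3346 and 3407 CPM with PFI-3. Its groups were apart but it was not called by the 12-library model (adjusted p = 0.236), and it was called in the fit of only these 4 libraries. The proliferating libraries of Acta2, which enter the 12-library model and not that fit, stood at 3735 and 1382 CPM with DMSO and 1191 and 799 CPM with PFI-3.

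Xenobiotic and antioxidant enzymes were among the largest rises. Of 14 genes of the aryl hydrocarbon receptor pathway, 7 were higher (50.0%, against 13.4% of all genes). Another 2 were lower (14.3%, near the 14.0% of all genes), and the median of 1.536 was the highest of the 27 lists. Aldh3a1, an aldehyde dehydrogenase, stood at 9.92 and 10.6 CPM with DMSO and 90.7 and 86.6 CPM with PFI-3 (log2 fold change 3.11 ± 0.40, adjusted p = 0.000126). Nqo1, a quinone reductase that NRF2 also controls, measured 5.53 and 6.95 CPM with DMSO and 46.5 and 45.3 CPM with PFI-3 (log2 fold change 2.88 ± 0.20, adjusted p = 1.45e-06). Cyp1b1, a cytochrome P450, measured 199 and 197 CPM with DMSO and 579.5 and 595 CPM with PFI-3 (log2 fold change 1.57 ± 0.11, adjusted p = 2.13e-06). The gaps between treatments were wide in all 3, and Aldh3a1 and Nqo1 were more than 7-fold higher. Cyp1a1, the classical target, rose from 0.081 and 0.164 CPM to 2.82 and 2.58 CPM (log2 fold change 4.36 ± 1.33, adjusted p = 0.0291), a low level throughout. The receptor itself, Ahr, fell by 1.01 and its partner Arnt2 by 1.11 on the log2 scale, while its repressor Ahrr rose by 1.86. Ugt1a6a measured 5.88 and 5.38 CPM with DMSO and 15.5 and 16.5 CPM with PFI-3, but its counts are fractional in 91.7% of libraries and so are uncertain. Slc7a5 stood at 208 and 196 CPM with DMSO and 169 and 162 CPM with PFI-3 and was not called (adjusted p = 0.432).

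The promoter of Cyp1b1, at chr17:79715062-79715311 on the minus strand (RefSeq, GRCm38.p6), is shown as one that holds a match, with the core of the xenobiotic response element in capitals, GCGTG or its reverse complement CACGC.
Cyp1b1: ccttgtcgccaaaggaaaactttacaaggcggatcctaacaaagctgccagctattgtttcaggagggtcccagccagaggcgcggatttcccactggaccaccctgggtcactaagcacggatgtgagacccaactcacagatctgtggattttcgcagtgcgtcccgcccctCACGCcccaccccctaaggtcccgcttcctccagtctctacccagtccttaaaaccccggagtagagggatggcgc
The match spans bases -76 to -72. The element was in 55.6% of the 9 promoters of the pathway that matched the table (9 of 14 genes) and in 28.2% of all promoters. It was also in 47.1% of the 51 promoters of replication genes and 47.9% of the 48 promoters of mitosis genes, so it was not particular to this pathway.

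In the NRF2 and glutathione pathway, 19 of 44 genes rose (43.2%, against 13.4% of all genes). Another 6 fell (13.6%, near the 14.0% of all genes), and the median was 0.28. The glutathione transferases Gstm2 and Gsta4 measured 13.3 and 12.1 CPM with DMSO and 42.8 and 43.8 CPM with PFI-3 (log2 fold change 1.77 ± 0.29, adjusted p = 0.000823) and 20.2 and 20.4 CPM with DMSO and 55.8 and 56.9 CPM with PFI-3 (log2 fold change 1.47 ± 0.21, adjusted p = 0.000308). Mgst1, a microsomal transferase, measured 2.68 and 3.03 CPM with DMSO and 7.21 and 7.96 CPM with PFI-3 (log2 fold change 1.41 ± 0.26, adjusted p = 0.00154). All 3 were more than 2-fold higher in both PFI-3 libraries. The falls were led by Gpx7 (-3.04), and the cystine transporter Slc7a11 stood at 638 and 646 CPM with DMSO and 589.9 and 577 CPM with PFI-3 and was not called (adjusted p = 0.17).

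Chemokines and cytokines gave 12 rises (37.5%, against 13.4% of all genes) and 4 falls (12.5%, near the 14.0%) among 32 tested. The list median was 0.376. Ccl5, a chemokine for T cells, stood at 1.30 and 1.31 CPM with DMSO and 24.7 and 29.5 CPM with PFI-3 (log2 fold change 4.37 ± 1.29, adjusted p = 0.025). Cxcl5, a neutrophil chemokine, measured 22.8 and 21.0 CPM with DMSO and 151 and 158 CPM with PFI-3 (log2 fold change 2.82 ± 0.34, adjusted p = 7.49e-05). Cxcl1 measured 10.7 and 9.41 CPM with DMSO and 36.9 and 38.9 CPM with PFI-3 (log2 fold change 1.92 ± 0.31, adjusted p = 0.000768) and Ccl2, a monocyte chemokine, 3.82 and 3.11 CPM with DMSO and 15.7 and 14.1 CPM with PFI-3 (log2 fold change 2.10 ± 0.14, adjusted p = 1.4e-06). Each of these was higher by more than 3-fold, with tight pairs. The Ccl5 call was lost when any 1 of the 4 libraries was left out, and its proliferating libraries, which share the model's spread, differed widely, at 29.9 and 0.369 CPM with DMSO and 40.2 and 7.34 CPM with PFI-3. Vcam1, the most abundant gene of the list that was not called, stood at 167 and 171 CPM with DMSO and 157 and 165 CPM with PFI-3 (adjusted p = 0.566). The macrophage markers moved with these genes by little (8.05 to 8.43 CPM and 9.37 to 10.1 CPM in sum), and their part in the result was not tested.

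Of 42 interferon-stimulated genes, 21 were higher (50.0%, against 13.4% of all genes) and 1 lower (2.38%, against 14.0%). Their median was 0.537. Irf7, a transcription factor of the response, measured 3.82 and 2.13 CPM with DMSO and 9.24 and 10.8 CPM with PFI-3 (log2 fold change 1.75 ± 0.34, adjusted p = 0.00239), and Gbp2, a guanylate-binding protein, 2.77 and 3.35 CPM with DMSO and 10.3 and 9.29 CPM with PFI-3 (log2 fold change 1.68 ± 0.23, adjusted p = 0.000242). The class I histocompatibility genes H2-D1 and H2-K1 measured 47.0 and 47.8 CPM with DMSO and 107 and 105 CPM with PFI-3 (log2 fold change 1.16 ± 0.10, adjusted p = 5.85e-06) and 66.0 and 65.7 CPM with DMSO and 142 and 144 CPM with PFI-3 (log2 fold change 1.12 ± 0.10, adjusted p = 1.03e-05), with counts fractional in every library. All 4 were higher with PFI-3. The list was not uniform: Ifit1, one of its best-known members, stood at 63.8 and 56.9 CPM with DMSO and 27.0 and 27.9 CPM with PFI-3, lower in both PFI-3 libraries and not called (log2 fold change -1.13 ± 0.46, adjusted p = 0.0861), though called in the fit of only these 4 libraries. Stat2 stood at 67.5 and 68.1 CPM with DMSO and 59.0 and 61.1 CPM with PFI-3 (adjusted p = 0.171).

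**Figure D4:**
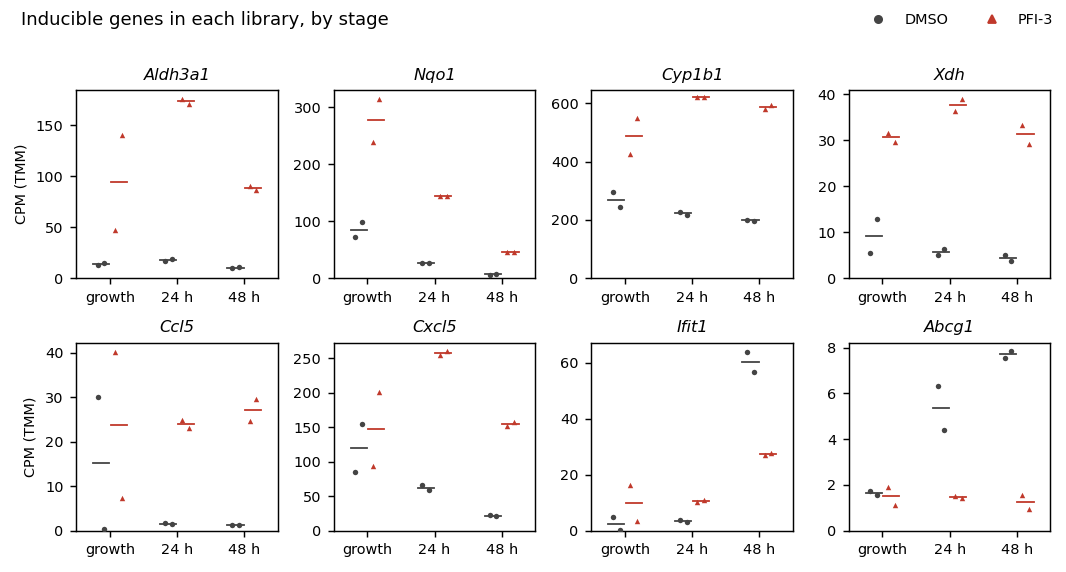
TMM-scaled CPM (y axis, linear from 0) of 8 inducible genes in each of the 12 libraries, by stage (x axis); circles are DMSO, triangles PFI-3 and short bars the mean of 2 libraries. Aldh3a1, Nqo1, Cyp1b1, Xdh, Ccl5 and Cxcl5 are higher with PFI-3 at 48 h, Ifit1 and Abcg1 are lower, and the proliferating libraries of Ccl5 differ widely between replicates.

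Lipid genes gave mostly falls where they changed. Of 38 genes of cholesterol synthesis and LXR targets, 10 fell (26.3%, against 14.0% of all genes) and 1 rose (2.63%, against 13.4%). Their median was -0.253. LXR targets led: Abca1 and Abcg1, the cholesterol exporters, stood at 4.15 and 4.74 CPM against 0.627 and 0.468 CPM for DMSO against PFI-3 (log2 fold change -3.00 ± 0.38, adjusted p = 0.000107) and 7.56 and 7.85 CPM against 1.57 and 0.937 CPM (log2 fold change -2.61 ± 0.30, adjusted p = 5.72e-05). Srebf1, which drives fatty acid synthesis, measured 276 and 271 CPM with DMSO and 159.9 and 143 CPM with PFI-3 (log2 fold change -0.85 ± 0.13, adjusted p = 0.000499). Scd1 and Scd2, stearoyl-CoA desaturases, changed by -1.27 ± 0.16 and -1.14 ± 0.23, with counts that are fractional in every library and so are uncertain. These were all lower in both PFI-3 libraries. Within cholesterol synthesis proper, Dhcr7 measured 142 and 133 CPM with DMSO and 76.3 and 69.2 CPM with PFI-3 (log2 fold change -0.92 ± 0.14, adjusted p = 0.000424), while the regulator Srebf2 stood at 726 and 689 CPM with DMSO and 669 and 618 CPM with PFI-3 and was not called (adjusted p = 0.533).

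Of 40 genes of ATF4 and the unfolded protein response, 10 rose (25.0%, against 13.4% of all genes) and 6 fell (15.0%, near the 14.0% of all genes), with a median of -0.031. The amino acid genes Pycr1 and Asns measured 20.8 and 21.2 CPM with DMSO and 7.28 and 9.45 CPM with PFI-3 (log2 fold change -1.33 ± 0.34, adjusted p = 0.0126) and 80.2 and 82.4 CPM with DMSO and 45.0 and 43.6 CPM with PFI-3 (log2 fold change -0.88 ± 0.28, adjusted p = 0.0337), and Atf5 measured 92.1 and 83.9 CPM with DMSO and 36.4 and 37.1 CPM with PFI-3 (log2 fold change -1.26 ± 0.17, adjusted p = 0.000176). All 3 were lower. The Asns call was lost on both FPKM scales and with any 1 of the 4 libraries left out, and the Pycr1 call without library A or B of DMSO or library A of PFI-3. Gdf15, a stress-induced hormone, was higher, at 4.72 and 4.42 CPM with DMSO and 8.22 and 7.49 CPM with PFI-3 (log2 fold change 0.78 ± 0.17, adjusted p = 0.00545). Of the chaperones of the endoplasmic reticulum, Hyou1 rose by 0.52 and Hspa5 by 0.26 on the log2 scale, and calnexin (Canx) was at 423 and 449 CPM with DMSO and 466 and 494 CPM with PFI-3 and was not called (adjusted p = 0.109).

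The largest single changes among genes at a mean of 5 CPM or more lay partly outside the lists. R3hdml, a cysteine-rich secreted protein, showed the largest fall, at 37.9 and 35.0 CPM with DMSO and 1.41 and 1.72 CPM with PFI-3, 23.2-fold lower (log2 fold change -4.53 ± 0.20, adjusted p = 5e-07). Mfap4, a microfibril protein, measured 31.3 and 30.8 CPM with DMSO and 3.92 and 2.26 CPM with PFI-3 (log2 fold change -3.33 ± 0.23, adjusted p = 4.66e-06), and Col25a1, a membrane collagen expressed in muscle that motor axons need, 46.8 and 48.1 CPM with DMSO and 5.48 and 4.06 CPM with PFI-3 (log2 fold change -3.31 ± 0.19, adjusted p = 4.87e-07). Each dropped at least 8-fold, with no PFI-3 library near a DMSO library. Cmklr1, the chemerin receptor, measured 71.9 and 66.3 CPM with DMSO and 10.1 and 7.89 CPM with PFI-3 (log2 fold change -2.94 ± 0.15, adjusted p = 2.96e-07), and Adamtsl2, a matrix glycoprotein, 29.9 and 35.1 CPM with DMSO and 4.78 and 3.98 CPM with PFI-3 (log2 fold change -2.89 ± 0.20, adjusted p = 4.66e-06). Tekt5 measured 20.01 and 18.2 CPM with DMSO and 2.19 and 2.58 CPM with PFI-3 (log2 fold change -3.00 ± 0.25, adjusted p = 9.6e-06). D630003M21Rik changed by -3.20 ± 0.21 and the septin gene Sept4 by -2.99 ± 0.30. Igfn1, Cilp, Postn and Mb, described above, complete the 12 largest falls.

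Of the 12 largest rises, Ccl5, Aldh3a1, Nqo1 and Cxcl5 were described above. Fbln7, a cell adhesion fibulin, stood at 3.42 and 3.19 CPM with DMSO and 25.7 and 24.5 CPM with PFI-3 (log2 fold change 2.92 ± 0.17, adjusted p = 4.87e-07). Xdh, xanthine dehydrogenase, measured 5.04 and 3.76 CPM with DMSO and 33.4 and 29.1 CPM with PFI-3 (log2 fold change 2.82 ± 0.29, adjusted p = 2.46e-05), and Angptl4, an inhibitor of lipoprotein lipase, 9.35 and 9.08 CPM with DMSO and 54.4 and 54.0 CPM with PFI-3 (log2 fold change 2.56 ± 0.18, adjusted p = 2.08e-06). All 3 were at least 5-fold higher with closely matched replicates. Lgals3bp, a secreted galectin ligand, measured 27.1 and 25.5 CPM with DMSO and 131 and 140.1 CPM with PFI-3 (log2 fold change 2.36 ± 0.09, adjusted p = 2.17e-08), and Dhrs3, a retinaldehyde reductase, 3.33 and 4.66 CPM with DMSO and 21.9 and 21.6 CPM with PFI-3 (log2 fold change 2.44 ± 0.44, adjusted p = 0.00156). Sfrp2, a secreted Wnt antagonist, measured 7.56 and 7.12 CPM with DMSO and 37.1 and 37.2 CPM with PFI-3 (log2 fold change 2.34 ± 0.33, adjusted p = 0.000263). The DMSO and PFI-3 libraries of these genes were far apart as well. Slc1a3, a glutamate transporter, measured 7.48 and 9.57 CPM with DMSO and 60.1 and 62.5 CPM with PFI-3 (log2 fold change 2.84 ± 0.50, adjusted p = 0.00125), and Mgp, matrix Gla protein, 14.4 and 13.2 CPM with DMSO and 65.0 and 67.6 CPM with PFI-3 (log2 fold change 2.27 ± 0.61, adjusted p = 0.0158). The Mgp call was lost with DESeq2 (adjusted p = 0.0729), on both FPKM scales and with any 1 of the 4 libraries left out, and its proliferating libraries stood at 4.08 and 27.5 CPM with DMSO and 3.86 and 22.1 CPM with PFI-3.

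The effect at 48 h was then compared with that at 24 h, in the same model, as a difference of the 2 log2 fold changes. The difference was called for 1517 genes (12.1%), 893 with a higher value at 48 h (7.12%) and 624 with a lower one (4.97%). With any 1 library at 24 h or 48 h left out, 790 to 865 differences were called, 265 to 316 of them lower, and the 8 differentiation libraries gave 4154. Of 107 replication and mitosis genes, 102 had a higher effect at 48 h and none a lower one. Their median effect was -0.175 at 24 h, where 28 were called lower (11.4% of all genes) and 1 higher (12.2%), and 0.941 at 48 h. Chaf1b had a difference of 1.88 ± 0.11, adjusted p = 8.7e-06, and Cdc6 one of 1.97 ± 0.25, adjusted p = 0.000315. At 24 h, Chaf1b had stood at 46.4 and 46.6 CPM with DMSO and 39.4 and 39.8 CPM with PFI-3, with PFI-3 slightly lower, the reverse of the order at 48 h.

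The median effect over the contractile and calcium-handling genes was -1.259 at 24 h and -0.605 at 48 h. The difference was called higher for 39 of 116 members (7.12% of all genes) and lower for 6 (4.97% of all genes), and most members had no called difference. The lists were not alike in this. Thick filament genes had medians of -1.596 at 24 h and -0.812 at 48 h, with 15 of 29 differences called higher and 1 lower, and thin filament genes -1.349 and -0.788, with 9 of 21 called higher and none lower. The Z-disc and costamere list had medians of -0.508 at 24 h and -0.536 at 48 h, with 8 of 35 differences called higher and 3 lower. Excitation-contraction coupling had -0.558 and -0.444, with 7 of 31 called higher and 2 lower. Tnni1 had a difference of 0.71 ± 0.11, adjusted p = 0.00111, lost on log2(FPKM + 0.1) (0.129). Myog had one of 0.44 ± 0.11, adjusted p = 0.0185, lost on that scale (0.456) and when any 1 library at 24 h or 48 h was left out. Actn2 had a difference of 0.95 ± 0.26, adjusted p = 0.0349 and was lost when any 1 of the 8 libraries at 24 h or 48 h was left out. On log2(FPKM + 1) the difference of Actn2 turned to -0.476. At 24 h its level had been 5.87 and 6.73 CPM with DMSO and 0.761 and 1.07 CPM with PFI-3. Igfn1 went the other way, with a difference of -3.84 ± 0.99, adjusted p = 0.0283. At 24 h it had stood at 0.079 and 0.387 CPM with DMSO and 0.076 and 0.458 CPM with PFI-3, under 1 CPM in both treatments with overlapping groups, and its difference was lost without any 1 library at 48 h, without library A of DMSO at 24 h or without library B of PFI-3 at 24 h, where it was -2.15 (adjusted p = 0.565).

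Energy metabolism had a lower median at 48 h than at 24 h. Its median was 0.138 at 24 h and -0.84 at 48 h. At 24 h, 6 of 33 genes were called higher (12.2% of all genes) and 10 lower (11.4% of all genes). The difference was called lower for 10 (4.97% of all genes) and higher for 1 (7.12%). The 1 higher gene was Fgf21, a hormone secreted by stressed muscle, at 19.5 and 20.5 CPM with DMSO and 0.609 and 0.839 CPM with PFI-3 at 24 h and 52.1 and 49.8 CPM with DMSO and 20.4 and 20.6 CPM with PFI-3 at 48 h (difference 3.46 ± 0.29, adjusted p = 3.39e-05). Pfkfb3, a glycolytic regulator named by the same rule, was higher with PFI-3 at 24 h (12.3 and 12.0 CPM with DMSO and 26.0 and 25.7 CPM with PFI-3) and lower at 48 h (41.1 and 34.9 CPM with DMSO and 16.5 and 18.7 CPM with PFI-3), a difference of -2.20 ± 0.31, adjusted p = 0.000738. Its treatments thus exchanged places between the times.

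**Figure D5:**
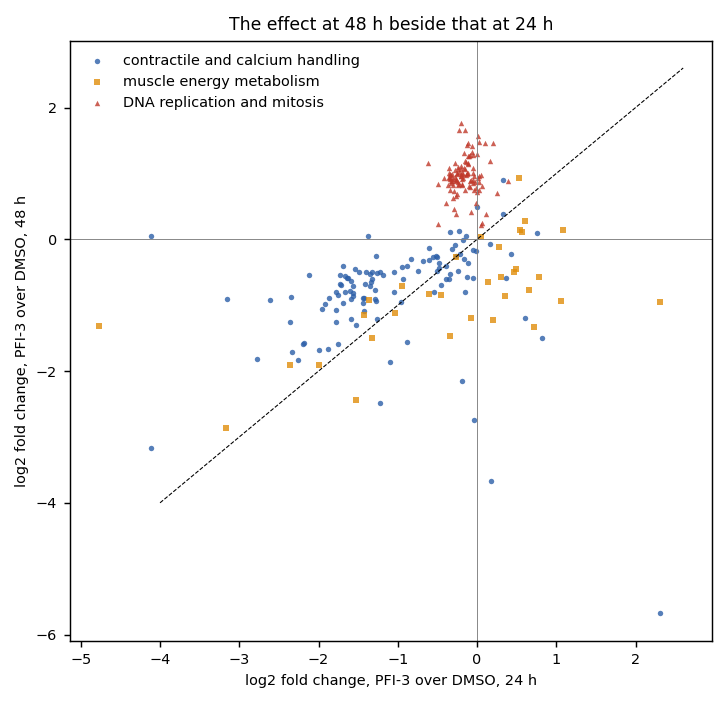
Log2 fold change of PFI-3 over DMSO at 24 h (x axis) and at 48 h (y axis) for members of the contractile and calcium-handling lists (circles), muscle energy metabolism (squares) and DNA replication and mitosis (triangles); the dashed line marks equal effects. Cell cycle genes cluster near 0 at 24 h and near 1 at 48 h, and most contractile genes lie below 0 at both times and above the dashed line.

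The remaining genes with the largest differences were Pdgfb and Fmod, whose effects were less negative at 48 h, and Pstpip1, Ifit1 and Serping1, whose effects were more negative. Pdgfb, a growth factor, went from 7.61 and 8.44 CPM with DMSO and 0.837 and 0.686 CPM with PFI-3 at 24 h to 27.9 and 22.1 CPM with DMSO and 10.8 and 8.51 CPM with PFI-3 at 48 h (difference 2.01 ± 0.35, adjusted p = 0.00289), and its difference was 0.493 on log2(FPKM + 1) (adjusted p = 0.108). Fmod had a difference of 2.00 ± 0.45, adjusted p = 0.0127, lost on both FPKM scales and without library B of either group at 48 h, library A of DMSO at 24 h or either PFI-3 library at 24 h. Pstpip1, a cytoskeletal adaptor, went from 0.634 and 0.464 CPM with DMSO and 0.837 and 0.61 CPM with PFI-3 to 21.1 and 20.2 CPM with DMSO and 3.99 and 3.51 CPM with PFI-3 (difference -2.85 ± 0.43, adjusted p = 0.00106). Pstpip1 was under 1 CPM in all 4 libraries at 24 h, and at 48 h both PFI-3 libraries were several-fold below the DMSO libraries. Serping1, a complement inhibitor, was higher with PFI-3 at 24 h (1.19 and 1.78 CPM with DMSO and 4.03 and 4.73 CPM with PFI-3) and lower, though not called, at 48 h (8.78 and 7.04 CPM with DMSO and 5.09 and 4.68 CPM with PFI-3), a difference of -2.25 ± 0.52, adjusted p = 0.0154, lost on log2(FPKM + 0.1) and without library A of DMSO or either library of PFI-3 at 48 h, library A of DMSO at 24 h or library B of PFI-3 at 24 h. Ifit1 had a difference of -2.71 ± 0.81, adjusted p = 0.0497, a value at the threshold that was lost under 12 of its other settings.

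In the list of cholesterol synthesis and LXR targets, 26 of 38 genes were called lower at 24 h (11.4% of all genes), with a median of -0.779, and 10 at 48 h (14.0% of all genes), with a median of -0.253. The difference itself was called higher for 5 (7.12% of all genes) and lower for 2 (4.97%), and was not called for the other members. The aryl hydrocarbon receptor list had no member with a called difference in either direction, among 14 tested; its median was 1.342 at 24 h and 1.536 at 48 h.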

How the data were processed

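RNA was measured by sequencing in 12 libraries, 4 of them from 48 h of differentiation, 2 per treatment. The deposited tables give, per gene and library, an expected count (an estimated count that need not be whole) and an FPKM value made by the authors. The submitters' processing notes name HISAT, StringTie, Cufflinks, Bowtie, RSEM and DESeq2 and the build mm10; their order and settings are not given in the sources used here. Tables were joined on the gene number, a gene missing from a table counted as 0, and 93.4% to 93.7% of values at 48 h were whole. Expected counts were rounded and 12545 of 16288 genes passed edgeR's filterByExpr. All 12 libraries were fitted in 1 model of 6 groups (edgeR 4.0.16 in R 4.3.3, TMM, quasi-likelihood test, two-sided, Benjamini-Hochberg adjustment over all genes tested, threshold 0.05). Its contrasts were PFI-3 against DMSO at 48 h and at 24 h, the difference of these effects, and 48 h against 24 h within each treatment. Adjusted p-values printed here come from that fit unless another tool is named: limma 3.58.1 on log2(FPKM + 1) or log2(FPKM + 0.1), or DESeq2 1.42.0. The script was tested on simulated data.

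The text names Smarca2, Smarca4, Pbrm1, Myod1, Myog and Mef2c, the 12 largest rises and 12 largest falls at 48 h, and the 5 largest differences between times in each direction. Eligible genes were called, averaged 5 CPM or more and had one sign in both same-letter pairs and whole counts in at least 50% of the libraries listing them. From each list it names up to 4 called members with the largest change at a mean of at least 5 CPM and the most abundant member not called. Results of some genes that this rule selects are not reported here. Other names were chosen after their values were seen. The comparison, whose 4 libraries follow from their titles, and the 27 lists were chosen with earlier results of these data known. Of the list members, 822 were tested, 54 fell below the filter and 9 were not analysed here. Alternatives were other scalings and filters, DESeq2, limma, fewer libraries, a replicate block, 1 library left out and a 2-fold minimum. Replicates are described as biological duplicates and their letters were not said to pair dishes; p-values measure the spread between these samples. Where the fit leaves 1 library in a group, that library is assumed to vary like the others. Promoters are from RefSeq (GRCm38.p6), 250 bases before each start, without chromosome 18.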

Additional observations from a re-analysis of the deposited data

Results flagged for a closer look

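The effect of PFI-3 differed between 48 h and 24 h, by the test of the difference itself (edgeR, adjusted over all 12545 genes), for 48 of the genes named in the text. Each value below is the log2 fold change at 48 h minus that at 24 h. A positive value means that PFI-3 cells were higher relative to DMSO at 48 h than they had been at 24 h. Among genes of replication, mitosis and their regulators, the named differences were positive: Cdc6 1.97, Chaf1b 1.88, Cenph 1.37, Atad2 1.37, Nek2 1.33, Ccnf 1.33, Hmmr 1.30, Ccne2 1.24, Ccne1 1.19, Rbl1 1.18, Phf19 1.12, E2f1 1.11, Lin54 0.76 and Ezh2 0.71. Among muscle genes the positive differences were Tmem182 1.81, Actn2 0.95, Nes 0.81, Tnni1 0.71, Myl4 0.63, Atp2a1 0.46 and Myog 0.44, and the negative one was Igfn1 with -3.84. Among the other genes named, the positive differences were Fgf21 3.46, Pdgfb 2.01, Fmod 2.00, Fbln7 1.28, Cmklr1 1.15, Ccl2 0.73, Id1 0.61, Lgals3bp 0.56, Adamts4 0.52, H2-K1 0.52, Col1a1 0.47, Smarca4 0.39, Canx 0.38 and Slc7a11 0.34. The negative ones were Pstpip1 -2.85, Ifit1 -2.71, Serping1 -2.25, Pfkfb3 -2.20, Mfap4 -2.11, Cilp -2.03, Timp3 -1.31, Bhlhe40 -0.95, Fst -0.76, Junb -0.73, Bicral -0.58 and Plat -0.53. Of the 48 differences, 20 were called under every setting tried. These were Cdc6, Chaf1b, Cenph, Atad2, Nek2, Ccnf, Hmmr, Ccne2, Ccne1, Rbl1 and E2f1, with Fgf21, Fbln7, Col1a1, Pstpip1, Pfkfb3, Cilp, Timp3, Bhlhe40 and Junb. Each of the other differences was lost or reversed under some setting.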

How the results depend on the processing

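All 12 libraries share 1 estimate of the spread, and the biological coefficient of variation was 0.0756 over them and 0.0305 over the 4 libraries at 48 h. Without the proliferating libraries the counts of calls at 48 h rose from 3438 to 5833 (2830 higher, 3003 lower) in the 8 differentiation libraries and to 5688 (2778 and 2910) in the 4 libraries at 48 h alone. Of the 3438 calls, 3433 and 3421 were called with the same sign there. With the replicate block the 12-library fit called 3452 genes, 3331 of them shared with the fit without it, and 1544 differences; in the 4 libraries alone the block gave 6034 (2947 and 3087). Same-letter libraries deviated together with a correlation of 0.488 in proliferating cells, 0.037 at 48 h and 0.0177 at 24 h; since this was near 0 at both times compared, the letters were taken as labels only. With 1 library left out, 1937 to 2073 genes were called at 48 h (919 to 1040 higher, 990 to 1046 lower) and 790 to 865 differences (519 to 567 higher, 265 to 316 lower). A 2-fold minimum left 793 calls (338 and 455) and 411 differences (260 and 151). Limma on log2(FPKM + 1) gave 2554 rises, and on log2(FPKM + 0.1) 1148 falls. The 8 differentiation libraries gave 4154 differences (2117 and 2037), and DESeq2 398 lower ones. The difference of Actn2 reversed to -0.476 on log2(FPKM + 1). The cause of these shifts was not tested. Contractile and calcium-handling genes called lower ranged from 62 to 102 over all settings, and cell cycle genes called higher from 99 to 105. Of 125 named genes called at 48 h, 108 were called under every setting, and of 48 named differences 20 were. Of 30 named genes not called at 48 h, only 8 were called under no setting, so not called does not mean unchanged. Des, Fn1, Nes, E2f2, Slc7a5, Slc7a11, Srebf2, Slc6a8, Igfbp5, Stat2 and Canx were among those called without the proliferating libraries. This held in the 8 differentiation libraries and in the 4 libraries at 48 h alone. Genes near the count filter are the least certain: in 2169 cases a gene was listed in only 1 library of a group at 48 h, and in 98.0% of them its count there was at most 5.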
